A study of Mus musculus with 8 samples.

Results

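The fibroblast growth factor (FGF) genes of the choroid plexus were described as a set of 40 genes out of the 23284 genes in a count table of the mouse choroid plexus. Members were chosen by symbol alone: every numbered Fgf gene, the receptors, the binding proteins Fgfbp1 and Fgfbp3, the numbered Sprouty and Spred genes, the ETS transcription factors Etv1, Etv4 and Etv5, and the phosphatase gene Dusp6. Of the 40 members, 30 passed a filter on low counts and 10 did not. All embryos were of the CD1 strain at embryonic day E18.5. The 4 groups were the sorted epithelial cells of the hindbrain choroid plexus (in the fourth ventricle), the sorted epithelial cells of the telencephalic choroid plexus (in the lateral ventricles), the whole hindbrain plexus and the whole telencephalic plexus, with 2 libraries each. Epithelial cells were taken by flow cytometry from a Ttr::RFP line, in which a red fluorescent protein is tied to transthyretin (Ttr), the main secreted product of this epithelium. The study asked how the choroid plexus differs by its position in the brain, and the hindbrain and telencephalic plexus of a replicate came from the same brains. Sorted and whole libraries came from different brains, so a difference between the preparations and a difference between sets of brains cannot be told apart.

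Secreted FGFs bind receptor tyrosine kinases (the products of Fgfr1 to Fgfr4) together with heparan sulfate chains or a Klotho protein, and the receptors signal through the kinase ERK. Transcription of Etv4, Etv5, Dusp6 and the Sprouty and Spred genes commonly follows ERK activity, and many of these products damp the pathway in turn. For this reason they are widely used as transcriptional readouts of FGF signalling, although other growth factors that act through ERK also move them. In the embryonic head FGFs help to set the position of brain regions, and the choroid plexus is a secretory epithelium around a core of mesenchyme, vessels and macrophages.

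The proximal promoters of Dusp6 and Etv5 are shown because these members passed the test for a regional difference that changed with the preparation. Neither result held in every fit with 1 library left out. Sequences are the 250 bases upstream of each annotated start, read 5′ to 3′ on the gene's strand, from RefSeq (GRCm38.p6, a different build from the mm9 of the deposited counts). Capitals mark the hexamer CGGAAG, a form of the ETS factor motif, which in the Dusp6 promoter lies on the opposite strand and so reads CTTCCG. Etv5 has 2 annotated starts.
Dusp6, chr10:99262981-99263230, plus strand: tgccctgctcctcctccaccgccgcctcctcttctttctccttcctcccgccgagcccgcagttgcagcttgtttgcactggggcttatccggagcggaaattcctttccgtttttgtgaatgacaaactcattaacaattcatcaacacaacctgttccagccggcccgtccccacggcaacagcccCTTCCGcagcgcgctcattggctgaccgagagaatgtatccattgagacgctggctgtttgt
Etv5, chr16:22439571-22439820, minus strand: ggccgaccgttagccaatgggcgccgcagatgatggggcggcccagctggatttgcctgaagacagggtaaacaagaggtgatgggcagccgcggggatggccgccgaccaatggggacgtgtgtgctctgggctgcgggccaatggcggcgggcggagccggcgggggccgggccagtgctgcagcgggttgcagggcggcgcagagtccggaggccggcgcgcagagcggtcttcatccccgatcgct
Etv5, chr16:22438369-22438618, minus strand: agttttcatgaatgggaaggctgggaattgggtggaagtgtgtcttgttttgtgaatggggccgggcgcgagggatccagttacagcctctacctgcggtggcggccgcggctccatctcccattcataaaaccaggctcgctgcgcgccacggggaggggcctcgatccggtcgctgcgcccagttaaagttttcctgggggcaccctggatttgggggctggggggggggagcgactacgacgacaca
The Dusp6 promoter held 1 CGGAAG, 62 bases upstream of the start, and the Etv5 windows held none. Shorter or other forms of the ETS motif were not counted. None of these windows held TGANTCA, the AP-1 motif, or TGACGTCA, the CRE motif, on either strand. Among all 32851 mouse promoter windows of this length, 13.6% held CGGAAG, 6.75% held TGANTCA and 1.55% held TGACGTCA on at least 1 strand. Of the 40 members 30 matched the promoter table by symbol, with 39 windows. Among these 30, 7 held CGGAAG in at least 1 of their windows: Dusp6, Fgf12, Fgf23, Fgfbp3, Fgfrl1, Spred1 and Spred2. Members are counted here by gene, whereas the percentages above are shares of windows, so they cannot be compared directly. TGANTCA was present for Fgf12 and Fgf13, and TGACGTCA for 0 of the 30.

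The libraries held 8849053 to 31613434 counts assigned to genes, and a floor of 3 counts corresponded to 0.109 to 0.314 CPM (the count scaled by the size of the library). Differences are given as log2 fold changes with their standard error (SE), from edgeR's quasi-likelihood test over the 15698 genes that passed the filter, and a gene was called when its Benjamini-Hochberg adjusted p was below 0.05. In these bulk libraries fewer cells of a type and less RNA per cell cannot be told apart. The 8 epithelial markers included 4 called higher in sorted cells than in whole plexus in the hindbrain and 5 in the telencephalon, with 0 called lower in either, and summed to 167849 and 219206 CPM in hindbrain sorted cells, 289055 and 264894 in telencephalic sorted cells, 146031 and 147957 in whole hindbrain plexus, and 192398 and 177125 in whole telencephalic plexus. These sums were 94.7% to 97.5% Ttr, the gene of the reporter used for the sort. Without Ttr the other 7 markers summed to 8862 and 8531, 7239 and 7856, 6681 and 7102, and 5372 and 5039 CPM in the same order of groups. Enpp2 alone made up 5171 and 4890, 2766 and 3438, 3490 and 3975, and 1660 and 1699 CPM of these sums. It was called higher in the hindbrain in both preparations, whereas Folr1, another of the 7, was called lower in both. The regional order of these sums therefore does not stand for every epithelial marker. Markers of other cell types were still present in the sorted cells, and differently by region. The 8 mesenchymal markers summed to 1604 and 1224 CPM in hindbrain sorted cells, 710 and 747 in telencephalic sorted cells, 1638 and 1842 in whole hindbrain plexus, and 1072 and 1290 in whole telencephalic plexus. In the same order of groups, 8 mural markers summed to 271 and 244, 59.6 and 55.8, 341 and 415, and 355 and 376 CPM, and 8 macrophage markers to 162 and 125, 27.7 and 49.1, 142 and 150, and 108 and 126 CPM. Endothelial markers, also 8, summed to 158 and 159, 114 and 123, 654 and 702, and 639 and 660 CPM. Between hindbrain and telencephalic sorted cells, 7 of 8 mesenchymal, 7 of 8 mural, 8 of 8 macrophage and 4 of 8 endothelial markers were called higher, against 9.06% of all genes. Between hindbrain and telencephalic whole plexus the counts were 5, 0, 1 and 1 of 8 in the same order of lists, against 3.34% of all genes. A list of 10 immediate early genes, which cells switch on quickly after stimulation or handling, summed to 1449 and 1564 CPM in hindbrain sorted cells, 839 and 886 in telencephalic sorted cells, 72.0 and 70.4 in whole hindbrain plexus, and 68.4 and 55.2 in whole telencephalic plexus. Of those 10, 9 were called higher in hindbrain than in telencephalic sorted cells, and 10 were called higher in sorted cells than in whole plexus in each region. No gene of these 5 lists of non-epithelial and immediate early markers was at 0 in all libraries. These values stand beside every comparison, of sorted cells and of whole plexus, and their part in the results was not tested.

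**Figure D1:**
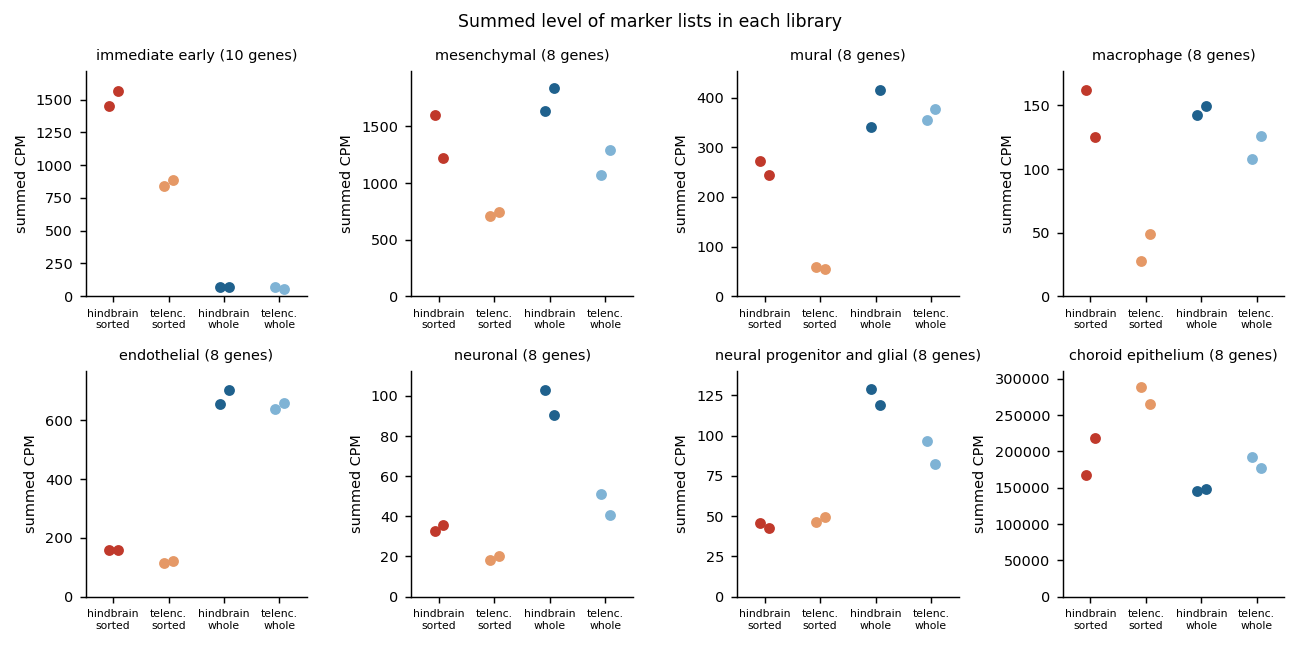
Summed CPM (linear axis from 0, with its own scale in each panel) of 8 marker lists, for immediate early genes, other cell types and choroid epithelium, with 1 point per library and the groups in the order hindbrain sorted, telencephalic sorted, hindbrain whole, telencephalic whole. Mesenchymal, mural and macrophage sums lay higher in hindbrain sorted than in telencephalic sorted cells, and immediate early sums were 839 to 1564 CPM in sorted cells, against 55.2 to 72.0 CPM in whole plexus.

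Across the 5 comparisons, 16 of the 40 members were called at least once, 14 passed the filter and were never called, and 10 were below the filter. Between hindbrain and telencephalic whole plexus 3 of the 30 tested members were called (1 higher, 2 lower), where 5.79% of all tested genes were called (3.34% higher, 2.45% lower). Between hindbrain and telencephalic sorted cells 9 of 30 were called (5 higher, 4 lower), against 15.2% of all genes (9.06% higher, 6.12% lower). The median log2 difference of the members was 0.18 in sorted cells and 0.03 in whole plexus, beside -0.00145 and 0.01 over all tested genes. The test of whether the regional difference itself changed with the preparation (the interaction) called 2 of 30 members, both with a positive difference, against 1.34% of all genes (1.1% positive, 0.242% negative). Between sorted cells and whole plexus, 5 of 30 members were called in the hindbrain (1 higher, 4 lower) and 10 of 30 in the telencephalon (all lower), against 22.1% (10.2% higher, 11.9% lower) and 22.4% (9.88% higher, 12.5% lower) of all genes. The member medians were -0.15 and -0.37, beside 0.01 and 0.01 over all genes.

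**Figure D2:**
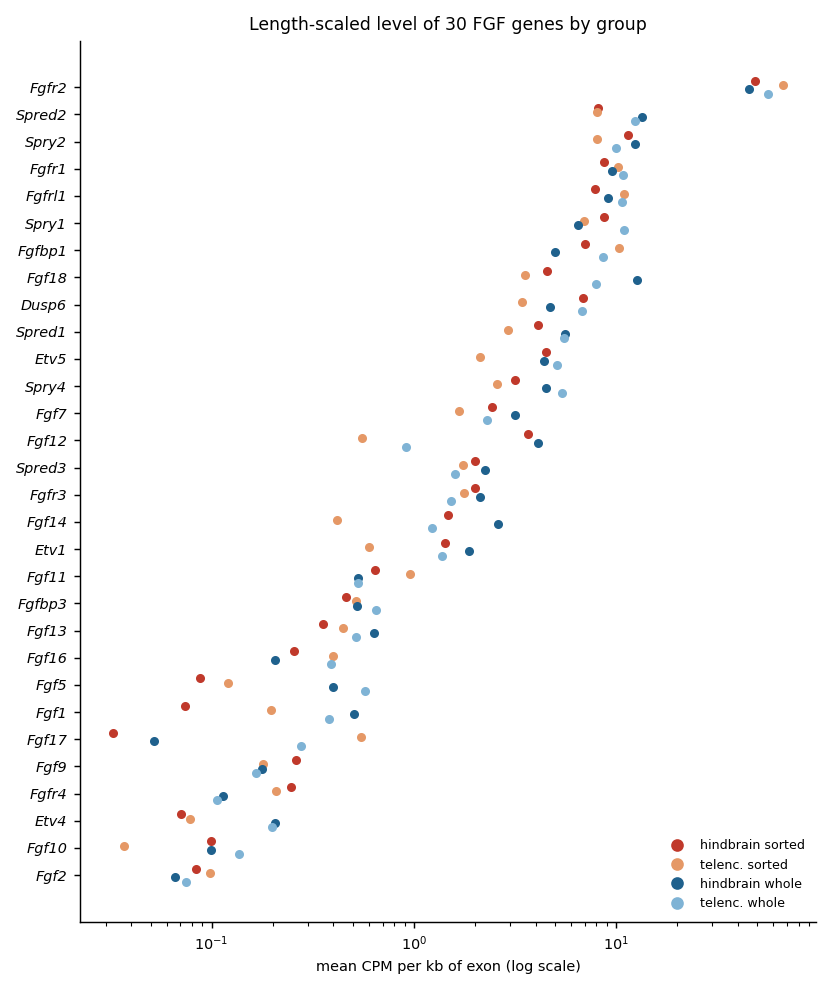
Mean CPM per kilobase of exon (log axis) of the 30 members that passed the filter, with 1 point per group (the mean of 2 libraries) and the members ordered from the highest to the lowest mean over the groups. Fgfr2, at 45.6 to 67.0 CPM per kb in the group means, lay above every other member.

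Secreted ligands other than Fgf18 and Fgf7 lay at no more than 3.31 CPM in any library. Of the 18 genes for secreted or endocrine FGFs, 9 passed the filter, and the highest of them was Fgf18, which signals to cartilage, bone and lung mesenchyme in development. Fgf18 stood at 6.80 and 4.04 CPM in hindbrain sorted cells, 4.99 and 3.41 in telencephalic sorted cells, 13.5 and 16.7 in whole hindbrain plexus, and 9.60 and 9.33 in whole telencephalic plexus. All whole libraries lay above all sorted libraries. Per length this was a mean level of 4.57, 3.54, 12.7 and 7.97 CPM per kb in the same order of groups. In whole hindbrain plexus this lay above the mean of the receptor gene Fgfr1 (9.54), and in the other groups below it. Fgf18 was lower in sorted cells than in whole plexus in the hindbrain (log2 -1.48 ± 0.27 SE, edgeR adjusted p = 0.00227) and in the telencephalon (-1.15 ± 0.28, adjusted p = 0.0126). The call in the telencephalon did not hold without sorted replicate 2 (adjusted p = 0.0887), without whole telencephalic replicate 1 (0.0888) and without whole telencephalic replicate 2 (0.0616). The regional difference of Fgf18 was not called, at 0.35 in sorted cells (adjusted p = 0.467) and 0.67 in whole plexus (adjusted p = 0.215).

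Fgf7, a mesenchymal ligand for the epithelial splice form of FGFR2, was next by length, with group means of 2.45, 1.68, 3.16 and 2.31 CPM per kb in hindbrain sorted, telencephalic sorted, whole hindbrain and whole telencephalic samples. Its levels were 8.69 and 7.19 CPM in hindbrain sorted cells, 6.62 and 4.28 in telencephalic sorted cells, 10.04 and 10.5 in whole hindbrain plexus, and 7.34 and 7.65 in whole telencephalic plexus, and it was called in none of the comparisons. Fgf10, which binds the same receptor form, never passed 0.943 CPM. Its counts reached 0 in 1 telencephalic sorted library.

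Fgf1 and Fgf5 were also lower in sorted cells. Fgf1, an FGF that binds every receptor of the family and lacks a signal peptide, stood at 0.546 and 0.257 CPM in hindbrain sorted cells, 0.416 and 1.74 in telencephalic sorted cells, 3.31 and 2.22 in whole hindbrain plexus, and 1.96 and 2.20 in whole telencephalic plexus. The telencephalic sorted libraries overlapped no whole library but differed from each other more than the other pairs. Fgf1 was called lower in sorted cells in the hindbrain (log2 -2.77 ± 0.64, adjusted p = 0.00937, and 0.0671 without whole hindbrain replicate 1). In the telencephalon it was not called (-1.01, adjusted p = 0.275), and the difference between the regions in this respect was not called either (-1.76, adjusted p = 0.595). Fgf5, known as the brake on hair growth, had 0.218 and 0.220 CPM in hindbrain sorted cells, 0.416 and 0.186 in telencephalic sorted cells, 0.726 and 1.27 in whole hindbrain plexus, and 1.28 and 1.57 in whole telencephalic plexus. Sorted and whole libraries did not overlap. Its calls (log2 -2.15 ± 0.67, adjusted p = 0.0343 in the hindbrain, and -2.14 ± 0.67, adjusted p = 0.035 in the telencephalon) rested on few reads. The hindbrain call ended without any 1 library except the telencephalic sorted ones (0.0652 to 0.279), and the telencephalic call without any 1 library except the hindbrain sorted ones (0.0662 to 0.179). DESeq2 gave adjusted p = 0.055 and 0.0529.

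Fgf17, a ligand of the anterior neural ridge and the midbrain-hindbrain boundary, was the only secreted ligand called between regions, and it was called in sorted cells. It had 0 and 3 counts in hindbrain sorted cells, 36 and 8 in telencephalic sorted cells, 2 and 2 in whole hindbrain plexus, and 5 and 6 in whole telencephalic plexus, which is 0 and 0.110, 1.36 and 0.496, 0.0806 and 0.0944, and 0.306 and 0.629 CPM. Both hindbrain groups lay below both telencephalic groups. Over the pooled counts of sorted cells, 3 in the hindbrain against 44 in the telencephalon, the hindbrain level was 18.9-fold lower, with a 95% interval of 6.05 to 94.96 that covers counting error only. The edgeR adjusted p was 0.0208, and it became 0.269 without telencephalic sorted replicate 1, 0.0677 without hindbrain sorted replicate 1, and 0.0513 and 0.0532 without whole telencephalic replicate 1 or 2. The interaction of Fgf17 was not called (adjusted p = 0.845).

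The remaining tested ligands, Fgf2, Fgf9, Fgf10 and Fgf16, lay between 0 and 1.86 CPM in every library and were never called. Fgf2 shares 640 exonic bases with Nudt6 on the opposite strand, and since the labels state no strand for the counting, reads of such overlaps cannot be told apart. Of the 10 members below the filter, Fgf4, Fgf6, Fgf22 and Spry3 had 0 counts in all 8 libraries. Fgf23, the bone-derived hormone of phosphate balance, had 20 counts in hindbrain sorted replicate 2 out of 22 in the 8 libraries. Fgf8, the organizer ligand of the embryonic midbrain-hindbrain boundary, had 16 of its 20 counts in that same library, and Fgf21, a metabolic hormone, 6 of 8. Fgf15 had 8 counts, Fgf3 had 2 and Fgf20 had 1 in all libraries together.

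**Figure D3:**
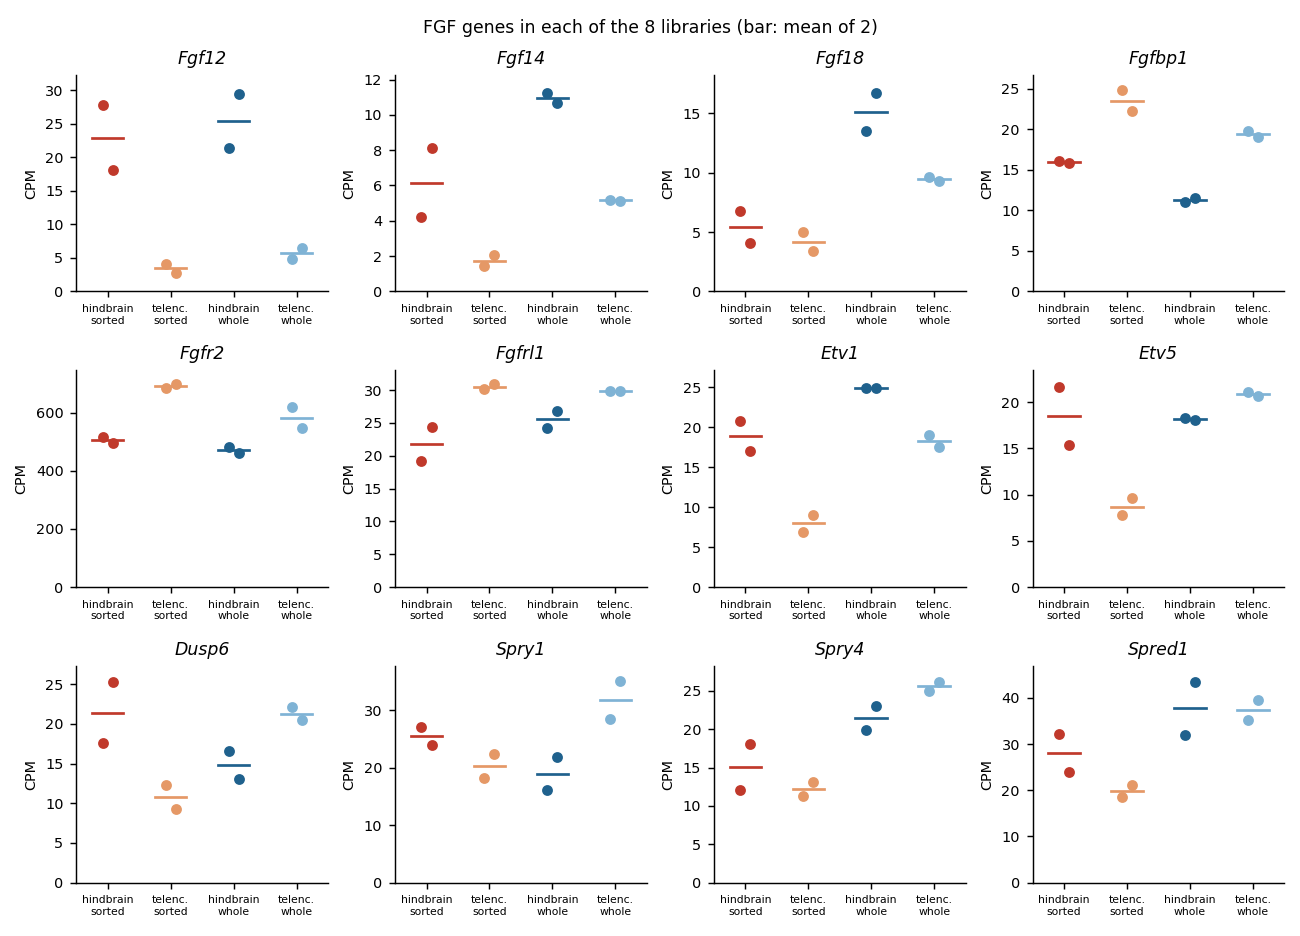
CPM per library (linear axis from 0, with its own scale in each panel) of 12 of the 16 members that were called at least once, with the 2 libraries of each group as points, their mean as a bar, and groups in the order hindbrain sorted, telencephalic sorted, hindbrain whole, telencephalic whole. Fgf12 lay at 18.1 to 29.5 CPM in the hindbrain libraries, against 2.79 to 6.50 CPM in the telencephalic ones, in both preparations.

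Of the 4 FGF homologous factors (Fgf11 to Fgf14), Fgf12 was called higher in the hindbrain in both preparations and Fgf14 in sorted cells. These relatives of the FGFs are not secreted by the classical route and are best known for binding voltage-gated sodium channels inside excitable cells. Fgf12 stood at 27.7 and 18.1 CPM in hindbrain sorted cells, 4.08 and 2.79 in telencephalic sorted cells, 21.4 and 29.5 in whole hindbrain plexus, and 4.89 and 6.50 in whole telencephalic plexus. Every hindbrain library lay above every telencephalic library. It was 6.53-fold higher in the hindbrain in sorted cells (log2 2.71 ± 0.27, adjusted p = 3.44e-05) and 4.53-fold higher in whole plexus (2.18 ± 0.27, adjusted p = 0.000414). The interaction was 0.53 with adjusted p = 0.772, and sorted cells and whole plexus were not called different in either region.

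Fgf14 stood at 4.22 and 8.11 CPM in hindbrain sorted cells, 1.44 and 2.05 in telencephalic sorted cells, 11.2 and 10.7 in whole hindbrain plexus, and 5.20 and 5.14 in whole telencephalic plexus. Within each preparation, hindbrain and telencephalic libraries did not overlap. The difference was called in sorted cells (log2 1.85 ± 0.33, adjusted p = 0.0025). In whole plexus it was 1.08 ± 0.31 with adjusted p = 0.0661, which became 0.0128 with the brain as a block, and the interaction was not called (0.77, adjusted p = 0.675). Unlike Fgf12, Fgf14 was called lower in sorted cells than in whole plexus in the telencephalon (-1.59 ± 0.35, adjusted p = 0.00635). Without telencephalic sorted replicate 1 or whole telencephalic replicate 1 that adjusted p was 0.0751 or 0.0503.
A list of 8 neuronal markers summed to 32.6 and 35.5 CPM in hindbrain sorted cells, 18.45 and 20.03 in telencephalic sorted cells, 103 and 90.5 in whole hindbrain plexus, and 51.3 and 40.9 in whole telencephalic plexus. In sorted cells most of this sum was Syt1, at 27.3 and 30.8 CPM in hindbrain sorted cells and 12.02 and 10.98 in telencephalic sorted cells. The neuronal genes Snap25, Stmn2, Tubb3 and Gap43 lay at 0 to 0.744 CPM in all sorted libraries. Elavl4 lay at 0.151 to 0.806 CPM and Syp at 0.567 to 1.799 CPM there. Dcx was higher, at 3.56 and 3.302 CPM in hindbrain sorted cells and 5.29 and 4.65 in telencephalic sorted cells. Between hindbrain and telencephalic sorted cells 1 of the 8 was called higher (Syt1) and 1 lower (Snap25), with a median log2 of -0.41. A list of 8 neural progenitor and glial markers summed to 45.8 and 42.4, 46.5 and 49.5, 129 and 119, and 96.6 and 82.2 CPM in the same order of groups. The part of these cells in the values of the channel-binding factors was not tested. The other homologous factors were low in every library, Fgf11 at 0.795 to 3.63 CPM and Fgf13 at 1.28 to 2.93 CPM, and neither was called.

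Fgfbp1, a secreted carrier that releases FGFs from heparan sulfate, was lower in the hindbrain. It had 16.04 and 15.9 CPM in hindbrain sorted cells, 24.8 and 22.2 in telencephalic sorted cells, 11.0 and 11.5 in whole hindbrain plexus, and 19.8 and 19.1 in whole telencephalic plexus. Both telencephalic groups lay above both hindbrain groups. The regional log2 difference was -0.56 ± 0.15 in sorted cells (adjusted p = 0.025) and -0.79 ± 0.16 in whole plexus (adjusted p = 0.0093). Fgfbp1 was also the only member called higher in sorted cells than in whole plexus, in the hindbrain (0.50 ± 0.15, adjusted p = 0.0345). All 3 calls depended on single libraries, with the adjusted p at up to 0.191, 0.125 and 0.164 when 1 library was left out. With library totals as the scale, the adjusted p was 0.138 between regions in sorted cells and 0.191 between the preparations. Fgfbp3, the other carrier, stood at 0.800 to 1.26 CPM and was not called.

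Among the receptors, Fgfr2 was the main transcript in every library. It held 77.8% to 84.7% of the summed CPM per kb of Fgfr1 to Fgfr4, against 12.5% to 17.8% for Fgfr1, 2.03% to 4.09% for Fgfr3 and 0.0482% to 0.542% for Fgfr4. Fgfr2 stood at 516 and 496 CPM in hindbrain sorted cells, 685 and 698.8 in telencephalic sorted cells, 481 and 460 in whole hindbrain plexus, and 620 and 546 in whole telencephalic plexus. All telencephalic libraries lay above all hindbrain libraries. The call was made in sorted cells, at log2 -0.45 ± 0.11 (adjusted p = 0.0136), and was not made without telencephalic sorted replicate 1 (0.071) or replicate 2 (0.0728). In whole plexus it was -0.31 ± 0.11 (adjusted p = 0.14), and the interaction was not called (-0.14, adjusted p = 0.863). It was also lost when counts were scaled by library totals (-0.25, adjusted p = 0.208). Fgfr2 shares 314 exonic bases with Ctbp2 on the same strand in the annotation. The counts per gene do not separate the epithelial and mesenchymal splice forms of Fgfr2.

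Fgfrl1, which encodes a receptor-like protein without a kinase domain, had 19.2 and 24.4 CPM in hindbrain sorted cells, 30.1 and 30.9 in telencephalic sorted cells, 24.2 and 26.8 in whole hindbrain plexus, and 29.8 and 29.9 in whole telencephalic plexus. Its call in sorted cells (-0.48 ± 0.15, adjusted p = 0.0485) lay next to the threshold and ended without any 1 library except hindbrain sorted replicate 2 (0.0606 to 0.206). In whole plexus Fgfrl1 was at -0.23 (adjusted p = 0.543), with an interaction of -0.26 (adjusted p = 0.808). Fgfr1 stood at 85.4 and 87.4, 96.3 and 106, 87.9 and 101, and 99.3 and 114 CPM in the same order of groups and was not called. Fgfr3 stood at 10.5 to 16.8 CPM in all libraries and Fgfr4 at 0.122 to 1.17 CPM, and neither was called. Between preparations edgeR called 0 of the 5 receptor genes in the hindbrain and 0 in the telencephalon, against 22.1% and 22.4% of all genes. At an unadjusted p below 0.05 the counts were 0 in the hindbrain and 1 in the telencephalon, and DESeq2 called 0 in both.

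The feedback genes gave the 2 members whose regional difference was called as changing with the preparation. Dusp6, whose product removes phosphate from ERK, stood at 17.6 and 25.2 CPM in hindbrain sorted cells, 12.3 and 9.30 in telencephalic sorted cells, 16.5 and 13.0 in whole hindbrain plexus, and 22.1 and 20.4 in whole telencephalic plexus. Hindbrain libraries lay above telencephalic ones in sorted cells and below them in whole plexus, without overlap in either. The log2 difference was 0.98 ± 0.21 in sorted cells (adjusted p = 0.00813) and was not called in whole plexus, at -0.52 ± 0.21 (adjusted p = 0.226). The interaction was 1.51 ± 0.30 (adjusted p = 0.0291). It was no longer called without either telencephalic sorted library (adjusted p of 0.0554 and 0.126), without whole hindbrain replicate 2 (0.118) or without either whole telencephalic library (0.171 and 0.129). The call between regions in sorted cells ended when telencephalic sorted replicate 2 was left out (0.0807).

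Etv5, an ETS transcription factor downstream of FGF and ERK, had 21.6 and 15.3 CPM in hindbrain sorted cells, 7.75 and 9.61 in telencephalic sorted cells, 18.3 and 18.0 in whole hindbrain plexus, and 21.1 and 20.6 in whole telencephalic plexus. The telencephalic sorted libraries were the low ones, and the other 3 groups lay within 15.3 to 21.6 CPM. The log2 difference was 1.10 ± 0.19 in sorted cells (adjusted p = 0.00231) and -0.20 in whole plexus (adjusted p = 0.703). The interaction of 1.30 ± 0.27 (adjusted p = 0.0377) was lost without any 1 library except hindbrain sorted replicate 2 (0.0618 to 0.209). Etv5 was lower in sorted cells than in whole plexus in the telencephalon, at -1.27 ± 0.20 (adjusted p = 0.000755), and in the hindbrain the difference was 0.03 (adjusted p = 0.939).

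Etv1, a second factor of the same ETS subgroup, had 20.7 and 17.0 CPM in hindbrain sorted cells, 6.88 and 9.05 in telencephalic sorted cells, 24.9 and 24.9 in whole hindbrain plexus, and 19.0 and 17.5 in whole telencephalic plexus. As for Etv5, the telencephalic sorted libraries were the lowest, without overlap with any other group. It was higher in hindbrain than in telencephalic sorted cells (1.26 ± 0.18, adjusted p = 0.000552), with 0.45 in whole plexus (adjusted p = 0.21) and an interaction of 0.81 that was not called (adjusted p = 0.231). In the telencephalon it was lower in sorted cells than in whole plexus (-1.21 ± 0.19, adjusted p = 0.000697). Etv4, the third factor, stood at 0.113 to 0.806 CPM and was not called.

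**Figure D4:**
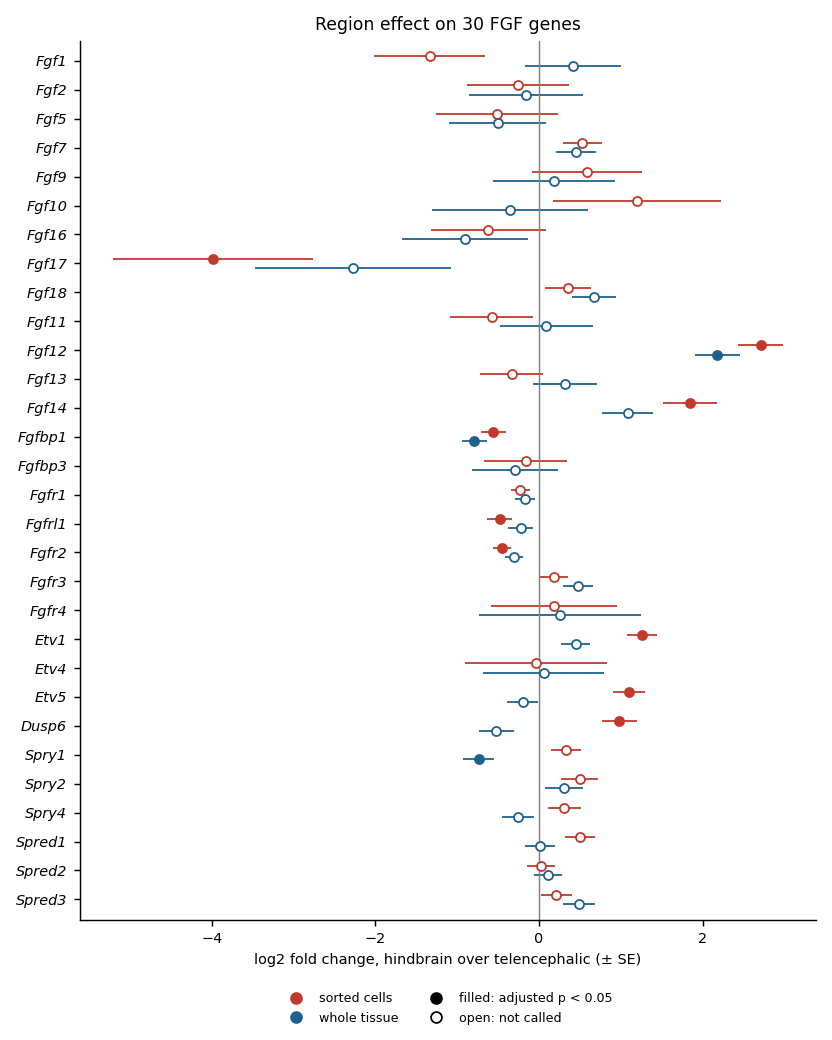
Log2 fold change of hindbrain over telencephalic samples for each tested member in sorted cells and in whole plexus, with bars of 1 SE, and filled points for adjusted p below 0.05. Dusp6 lay at 0.98 in sorted cells and -0.52 in whole plexus and Etv5 at 1.10 and -0.20, whereas Fgf12 lay at 2.71 and 2.18.

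Sprouty proteins inhibit the receptor-to-RAS step and Spred proteins are their membrane-bound relatives. Spry1 had 27.1 and 23.9 CPM in hindbrain sorted cells, 18.2 and 22.3 in telencephalic sorted cells, 16.2 and 21.8 in whole hindbrain plexus, and 28.4 and 35.0 in whole telencephalic plexus. As with Dusp6, hindbrain libraries lay above telencephalic ones in sorted cells and below them in whole plexus. The whole-plexus difference was called at -0.74 ± 0.19 (adjusted p = 0.0362), and was lost without whole hindbrain replicate 1 (0.255) and without whole telencephalic replicate 1 (0.0995) or 2 (0.329). It was also lost under library totals (0.0844). The interaction for Spry1 was 1.07 and not called (adjusted p = 0.079), and with the brain as a block it was 1.09 with adjusted p = 0.0185. Of the 13 alternatives 9 left it uncalled and 4 called it. With 1 library left out at a time it ran over 0.87 to 1.30.

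Spry4 was lower in sorted cells than in whole plexus in the telencephalon, by a log2 of -1.07 ± 0.20 (adjusted p = 0.00282). Its levels were 12.0 and 18.1 CPM in hindbrain sorted cells, 11.3 and 13.1 in telencephalic sorted cells, 19.8 and 23.0 in whole hindbrain plexus, and 24.95 and 26.2 in whole telencephalic plexus. All sorted libraries lay below all whole libraries. Spred1 showed a log2 of -0.92 ± 0.19 in the same comparison (adjusted p = 0.00478), with 32.2 and 23.9, 18.6 and 21.1, 32.1 and 43.5, and 35.3 and 39.6 CPM in the same order of groups. Spred2 was lower in sorted cells in both regions, by -0.73 ± 0.17 in the hindbrain (adjusted p = 0.0101) and -0.64 ± 0.17 in the telencephalon (adjusted p = 0.0204). It had 42.8 and 32.3 CPM in hindbrain sorted cells, 33.0 and 41.2 in telencephalic sorted cells, 55.6 and 68.7 in whole hindbrain plexus, and 61.8 and 53.4 in whole telencephalic plexus. The Spred1 call and both Spred2 calls were lost without 1 or more single libraries, with an adjusted p of up to 0.0582 for Spred1, and 0.0889 and 0.181 for Spred2 in the hindbrain and the telencephalon. Spry1 was lower in telencephalic sorted cells than in whole telencephalic plexus as well (-0.64 ± 0.19, adjusted p = 0.0272), with an adjusted p of up to 0.213 when 1 library was left out.

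Spry2 was not called, at 18.8 and 29.0 CPM in hindbrain sorted cells, 19.2 and 14.5 in telencephalic sorted cells, 21.6 and 30.1 in whole hindbrain plexus, and 20.4 and 21.4 in whole telencephalic plexus. Spred3, at 9.96 to 16.3 CPM, was not called either, and 202 of its exonic bases overlap Ggn on the opposite strand.

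Counted as a group, the feedback genes comprised 11 members, of which 10 were tested. In telencephalic sorted cells against whole telencephalic plexus 7 of the 10 were called lower (Etv1, Etv5, Dusp6, Spry1, Spry4, Spred1 and Spred2) and 3 were not called, with a median log2 of -0.94, where 12.5% of all genes were called lower. The count was 4 of 10 without telencephalic sorted replicate 1, and likewise without whole telencephalic replicate 1 or 2, and the call of Dusp6 in this comparison (-0.97 ± 0.22, adjusted p = 0.00743) had an adjusted p of 0.0686 without telencephalic sorted replicate 2 and 0.0742 without whole telencephalic replicate 1. In the hindbrain the same comparison called 1 lower, Spred2, and 9 not, a share near the 11.9% of all genes, and with library totals 4 were called lower. At an unadjusted p below 0.05 in edgeR the count was 6 of 10 in the hindbrain and 7 of 10 in the telencephalon. Uncalled in the hindbrain were Spry4 (-0.51), Spred1 (-0.43), Etv1 (-0.40), Dusp6 (0.53) and Spry1 (0.43). Their edgeR adjusted p was 0.0815 to 0.117. The difference between these 2 comparisons is the interaction, which was called for Dusp6 and Etv5 alone. Between hindbrain and telencephalic sorted cells 3 of 10 were called higher (Etv1, Etv5 and Dusp6), against 9.06% of all genes, with 5 called under library totals and 2 without telencephalic sorted replicate 2. Between hindbrain and telencephalic whole plexus 1 was called lower (Spry1), against 2.45% of all genes. The comparisons of telencephalic sorted cells with whole plexus and of hindbrain with telencephalic sorted cells share the telencephalic sorted libraries, so their counts are not separate evidence. The marker sums of mesenchymal, mural and macrophage cells in telencephalic sorted cells were the lowest of the 4 groups. The immediate early sums, in contrast, were higher in sorted cells than in whole plexus in both regions. Their part in the feedback genes' values was not tested.

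**Figure D5:**
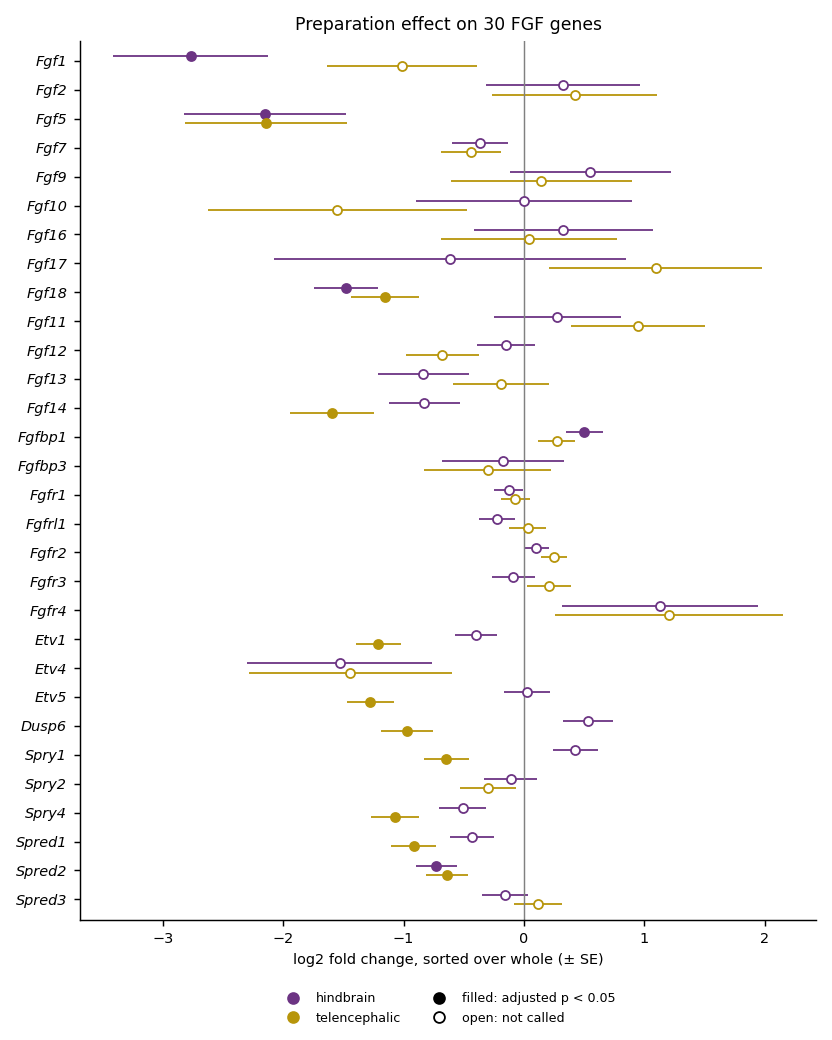
Log2 fold change of sorted cells over whole plexus for each tested member in the hindbrain and in the telencephalon, with bars of 1 SE, and filled points for adjusted p below 0.05. Among the open hindbrain points, Spry4 lay at -0.51, Spred1 at -0.43, Etv1 at -0.40, Dusp6 at 0.53 and Spry1 at 0.43. Of the feedback genes, 7 of 10 were called lower in the telencephalon (4 of 10 without 1 of 3 telencephalic libraries) and 1 of 10 in the hindbrain, where 12.5% and 11.9% of all genes were called lower.

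Other genes of the pathway were taken from lists of 61 genes (coreceptors, adaptors and kinases, further feedback and ERK target genes, heparan sulfate enzymes and cell-surface proteoglycans), of which 59 were tested. Between regions 2 of the 59 were called higher and 7 lower in whole plexus, where 3.34% of all genes were called higher and 2.45% lower. In sorted cells 9 were called higher and 10 lower, where the shares of all genes were 9.06% and 6.12%. Among 14 genes of heparan sulfate synthesis and editing, 1 was higher and 3 were lower in hindbrain than in telencephalic whole plexus, and 1 was higher and 4 were lower in hindbrain than in telencephalic sorted cells. Sulf1, an extracellular sulfatase that trims heparan sulfate and lowers FGF binding, had 946 and 1071 CPM in hindbrain sorted cells, 2228 and 2761 in telencephalic sorted cells, 916 and 953 in whole hindbrain plexus, and 2399 and 2256 in whole telencephalic plexus. The log2 difference was -1.31 in sorted cells (adjusted p = 2.15e-05) and -1.32 ± 0.12 in whole plexus (adjusted p = 5.62e-05). Sulf2, its paralogue, had 154 and 162, 356 and 388, 159 and 205, and 340 and 390 CPM in the same order, with differences of -1.23 and -1.005. Ext1, a polymerase of the chain, had 41.9 and 34.3, 81.3 and 77.5, 47.9 and 48.6, and 105 and 107 CPM, with differences of -1.06 and -1.14. All hindbrain libraries lay below all telencephalic libraries for these 3 genes.

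Of 9 tested cell-surface proteoglycans, 2 were higher and 3 lower in hindbrain than in telencephalic sorted cells, against 9.06% and 6.12% of all genes. In whole plexus 0 were higher and 2 lower in the hindbrain, against 3.34% and 2.45% of all genes. Gpc4, a glypican, had 26.0 and 28.3 CPM in hindbrain sorted cells, 70.9 and 70.3 in telencephalic sorted cells, 29.2 and 35.9 in whole hindbrain plexus, and 70.5 and 59.4 in whole telencephalic plexus, with log2 differences of -1.38 and -1.002 in sorted cells and whole plexus. Sdc3, a syndecan, was higher in hindbrain than in telencephalic sorted cells (1.84 ± 0.16, adjusted p = 1.2e-05) with an interaction of 1.34 (adjusted p = 0.00858). It was also lower in sorted cells than in whole plexus, by -1.17 in the hindbrain and -2.50 in the telencephalon.

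Kl, which encodes the Klotho coreceptor for endocrine FGF23, stood at 158 and 156 CPM in hindbrain sorted cells, 172 and 187 in telencephalic sorted cells, 124 and 117 in whole hindbrain plexus, and 105 and 87.9 in whole telencephalic plexus. It was higher in sorted cells than in whole plexus in the hindbrain (0.38, adjusted p = 0.0363) and in the telencephalon (0.89, adjusted p = 0.000228). Kl was also among the 8 epithelial markers, so these calls are already part of the counts given for those markers. Of the coreceptors of the FLRT family, Flrt2 and Flrt3 were higher (0.59 and 0.66) and Flrt1 lower (-0.91) in hindbrain than in telencephalic sorted cells.

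Of the 12 further feedback and ERK target genes, 4 were higher and 2 lower in hindbrain than in telencephalic sorted cells. The shares of all genes there were 9.06% higher and 6.12% lower. In whole plexus 0 were higher and 2 lower in the hindbrain, against 3.34% and 2.45% of all genes. Errfi1, an inhibitor of the EGF receptor, changed sign between the preparations. It stood at 44.2 and 52.9 CPM in hindbrain sorted cells, 30.9 and 33.9 in telencephalic sorted cells, 36.6 and 39.4 in whole hindbrain plexus, and 65.7 and 70.3 in whole telencephalic plexus. The differences were 0.58 (adjusted p = 0.0106) in sorted cells and -0.84 (adjusted p = 0.00207) in whole plexus, and the interaction was 1.42 (adjusted p = 0.00266). Phlda1 also had an interaction, of 1.82 (adjusted p = 0.0183), with 19.3 and 32.4 CPM in hindbrain sorted cells, 5.22 and 5.21 in telencephalic sorted cells, 16.8 and 18.9 in whole hindbrain plexus, and 11.4 and 14.2 in whole telencephalic plexus. Myc, a transcription factor gene of cell growth, stood at 3.60 and 9.83 CPM in hindbrain sorted cells, 0.945 and 1.18 in telencephalic sorted cells, 5.04 and 5.15 in whole hindbrain plexus, and 3.91 and 5.97 in whole telencephalic plexus. It was higher in hindbrain than in telencephalic sorted cells (2.67 ± 0.46, adjusted p = 0.00182), and its interaction of 2.61 was not called (adjusted p = 0.0716). All 3 genes are widely induced by growth factors other than FGFs as well. Il17rd, which encodes the FGF antagonist SEF, was lower in the hindbrain by -0.56 in sorted cells (adjusted p = 0.0223) and -0.59 in whole plexus (adjusted p = 0.0359).

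The list of adaptors and kinases that carry the signal from receptor to ERK held 20 genes. Between regions edgeR called 0 of them in sorted cells and 0 in whole plexus, against 15.2% and 5.79% of all genes. At an unadjusted p below 0.05 the counts were 3 and 0, and DESeq2 called 0 in both. Between sorted cells and whole plexus 4 were higher and 1 lower in the hindbrain, and 3 were higher and 3 lower in the telencephalon, near the 22.1% and 22.4% of all genes called in these comparisons.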

How the data were processed

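RNA was sequenced from 8 libraries, 2 in each of 4 groups. Per the labels' protocols, total RNA was amplified (Ovation RNA-seq System V2) before TruSeq v2 paired-end libraries were made, with no molecular identifiers named, so intervals and floors cover counting error only. The authors deposited raw read counts per gene. According to the processing notes of the submitters, the tools were HTSeq, DESeq 1, Bowtie2 2.0.5, TopHat2 2.0.4 and CASAVA 1.8.2 (roles not stated) on the build mm9, and the strand setting of the counting is not given in the sources used here. Counts were fitted with edgeR 4.0.16 (R 4.3.3): TMM scaling, filterByExpr (minimum count 10, minimum total 15), 4 group means over 8 libraries, quasi-likelihood F tests and Benjamini-Hochberg adjustment over 15698 of 23284 genes, checked on simulated data. Each SE is a Wald error from the same fit. CPM used the TMM-scaled totals, and CPM per kb the union of GENCODE M21 exons. Gene overlaps come from the same annotation (GRCm38), of which no coordinates were used with the mm9 counts.

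All 40 genes matching the symbol rule are accounted for. Values in every library are given for members called at least once and for those whose highest group mean was at least 20 CPM, and up to 3 called genes per pathway list and comparison are named by adjusted p, except that single adaptors and kinases are not reported here. The genes, lists and tests were chosen with earlier results of these data known. The series' design text states that hindbrain and telencephalic samples of 1 replicate came from the same brains. Same-brain libraries deviated together, with r = 0.145 in sorted cells and 0.193 in whole plexus over 15698 genes, so a fit with the brain as a block was an alternative for the regional comparisons. The others were DESeq2's size factors, DESeq2 1.42.0's Wald test, library totals, no filter, only the 4 libraries concerned, and each library left out in turn. Whether embryos were pooled is not given in the sources used here, and p-values measure spread between replicate libraries. In the main fit this spread is estimated for each gene over all 4 groups together. Replicate counts differed by a chi-square per degree of freedom of 61.1 in hindbrain sorted and 15.8 in telencephalic sorted cells. It was 12.3 in whole hindbrain and 5.16 in whole telencephalic plexus. Errors for the sorted groups thus draw partly on the whole groups, whose replicates lay closer.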

Additional observations from a re-analysis of the deposited data

Results flagged for a closer look

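The regional difference differed between the preparations for 2 members, by the interaction test of edgeR. For Dusp6 the log2 difference of hindbrain over telencephalic samples was larger by 1.51 in sorted cells than in whole plexus, and for Etv5 by 1.30. With 1 library left out at a time these values ran over 1.22 to 1.74 and 1.04 to 1.53. Neither interaction call held in every such fit. Both hindbrain sorted libraries lay above both telencephalic sorted libraries for each gene. In whole plexus both hindbrain libraries lay below both telencephalic libraries for each gene. Neither difference in whole plexus was called (edgeR adjusted p = 0.226 for Dusp6 and 0.703 for Etv5). The sums of mesenchymal, mural, macrophage and immediate early markers also differed between hindbrain and telencephalic sorted cells. In whole plexus 5 of 8 mesenchymal markers were called higher in the hindbrain, against 3.34% of all genes. The part of these markers in the result was not tested.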

How the results depend on the processing

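The 5 comparisons made 29 calls of members, of which 9 held under every alternative run: Fgf12 between regions in both preparations, Fgf14 between regions in sorted cells, Etv1 and Etv5 between regions in sorted cells and between preparations in the telencephalon, Fgf18 between preparations in the hindbrain, and Spry4 between preparations in the telencephalon. No call reversed, and 14 results that were not called became called under at least 1 alternative. Leaving out 1 library at a time gave 1 to 4 members called between regions in whole plexus, 5 to 10 in sorted cells, 0 to 3 for the interaction, 2 to 6 between sorted and whole hindbrain and 4 to 10 between sorted and whole telencephalic samples. Over all genes the same counts ran over 316 to 1341, 1051 to 3253, 58 to 473, 1691 to 3873 and 1519 to 4501, beside 909, 2383, 211, 3472 and 3517 with all libraries. With only the 4 libraries concerned, 5 members and 1587 genes were called between regions in whole plexus, 1460 genes between regions in sorted cells, and 3 members and 2236 genes between sorted and whole hindbrain samples. The last comparison called 3 members with the DESeq2 Wald test, 8 with no filter and 8 with library totals. The interaction called 335 genes with DESeq2 and 441 with no filter. With the brain as a block, the pairing stated in the design, 4, 9 and 3 members and 1195, 2943 and 337 genes were called between regions in whole plexus, between regions in sorted cells and for the interaction. The block made Fgf14 in whole plexus and the interaction of Spry1 calls. Library totals shifted the median log2 of all genes by 0.08, 0.20, 0.12, -0.20 and -0.32 in the 5 comparisons. The share of higher calls over all genes was then 70.7%, 83.5%, 85.4%, 20.1% and 10.5%, beside 57.6%, 59.7%, 82.0%, 46.3% and 44.1% with TMM. Members called higher with library totals were 2 of 3, 7 of 8, 2 of 2, 0 of 8 and 0 of 13. With 2 libraries in a group, a member at under 1 CPM rested on few reads, and the lack of a call at that level does not show equal levels.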
